A study of Mus musculus with 27 samples.

Results

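CC chemokines are small secreted proteins that draw leukocytes toward the cells releasing them, through G protein-coupled receptors on the leukocyte surface. In the brain they are made by microglia, by macrophages at the brain's borders, by astrocytes and by blood leukocytes that enter the tissue. Ccl2, Ccl7 and Ccl12 are ligands of Ccr2, the receptor of inflammatory monocytes. Ccl3, Ccl4 and Ccl5 draw macrophages, T cells and NK cells, and Ccr1 is a receptor that Ccl3, Ccl5, Ccl6, Ccl7 and Ccl9 can use. These 8 ligands and Ccr1 are the 9 genes described here. They were selected by symbol, through the Ensembl identifiers of GENCODE release M21, from the 55487 genes of the count table, and all 9 passed the filter on low counts that left 20271 genes for testing.

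Transcripts were measured by RNA-seq in the contralateral hippocampus (13 libraries) and cortex (14 libraries) of 14 male C57Bl/6J wild-type mice, 8 weeks old, that received α-IgLON5, control IgG or PBS for 14 days from an osmotic pump at 0.25 μl/h into the right lateral ventricle. α-IgLON5 stands for human autoantibodies to the neuronal surface protein IgLON5, a polyclonal preparation that was affinity-purified from the plasma of 1 patient. The control antibody is a non-reactive human monoclonal according to the labels and healthy-donor serum IgG according to the study's text, and it is called control IgG here. The groups were PBS (5 hippocampi and 5 cortices of mice 14, 32, 33, 38 and 74), control IgG (4 hippocampi of mice 10, 15, 37 and 75, and 5 cortices, with mouse 11 added) and α-IgLON5 (4 hippocampi and 4 cortices of mice 8, 9, 16 and 17). The number in each label was taken as the mouse, so that both tissues of a mouse could be set side by side.

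Total counts ran from 19385642 to 58550621 per library. The labels name neurons as the cell type, but the tissue was dissected whole, and 8 astrocyte genes together reached 4178 to 6514 CPM (read counts scaled to the normalized library size) beside 5624 to 8512 CPM for 8 neuronal genes. A list of 10 hippocampal genes summed to 711 to 1348 CPM in hippocampi and 335 to 462 CPM in cortices, while 10 cortical genes summed to 237 to 652 CPM and 631 to 969 CPM, with slight overlap. By group, hippocampi held 919 to 1348 (PBS), 711 to 1078 (control IgG) and 1007 to 1190 CPM (α-IgLON5) of the hippocampal genes and 255 to 447, 390 to 652 and 237 to 462 CPM of the cortical genes. In α-IgLON5 against control IgG hippocampi, 9 of 10 hippocampal genes had a positive log2 difference (median 0.62, 0 called) and 9 of 10 cortical genes a negative one (median -0.38, Igfn1 called), and control IgG mice 10 and 37 had the lowest hippocampal sums, 715 and 711 CPM. Without mouse 10 or without mouse 37, 7 of the 9 chemokine genes were called in that comparison in place of 8 (Ccl7 lost). The hippocampus of PBS mouse 74 stood apart, with 3889 CPM of 6 pituitary genes against at most 220 CPM in any other library. Without that library, Ccl7 was no longer called against PBS, and the other 7 genes called there were still called. The hippocampus of α-IgLON5 mouse 9 stood apart as well, with 11.6% of its counts on the rRNA gene CT010467.1 against 0.0403% to 4.18% in the other libraries, and a chi-square per degree of freedom of 156 to 247 against the rest of its group, where the other pairs had 12.5 to 17.2. Without it, 7 of the 9 genes were called against control IgG (Ccl7 lost) and 8 against PBS.

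Of the genes, 8 lie on chromosome 11 (GRCm38) in 2 blocks. Ccl2 (82035571 to 82037453, plus strand), Ccl7 (82045712 to 82047525, plus) and Ccl12 (82101845 to 82103400, plus) span 67.8 kb. Ccl5 (83525778 to 83530518, minus), Ccl9 (83572919 to 83578636, minus), Ccl6 (83587882 to 83593087, minus), Ccl3 (83647844 to 83649355, minus) and Ccl4 (83662584 to 83664683, plus) span 139 kb, and 1422 kb separate the blocks. Ccr1 is on chromosome 9 (123962124 to 123968692, minus). Gm17268 overlaps Ccl2 on the other strand with 0 reads in all libraries, and E230016K23Rik overlaps Ccl6 on the other strand with 54 reads against 1961 for Ccl6. How the counting treated strand, and reads that match several members of this family, is not given in the sources used here.

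RefSeq promoters (GRCm38.p6) were at hand for 5 of the 9 genes, and 4 are shown because they belong to a pair of ligands with large fold changes (Ccl3, Ccl12) and to the pair with the smallest (Ccl6, Ccl9). Each sequence holds the 250 bases before the start of transcription, 5′ to 3′ on the gene's own strand, at chr11:83649379-83649628 (minus) for Ccl3, chr11:82101595-82101844 (plus) for Ccl12, chr11:83593088-83593337 (minus) for Ccl6 and chr11:83578637-83578886 (minus) for Ccl9. Capitals mark matches on either strand to the kappaB consensus, to TTTCNNTTTC (an interferon response motif), to the AP-1 motif TGANTCA, to the core promoter motif TATAAA, or to GAGGAA (the core recognised by PU.1, a factor of myeloid cells).
Ccl3: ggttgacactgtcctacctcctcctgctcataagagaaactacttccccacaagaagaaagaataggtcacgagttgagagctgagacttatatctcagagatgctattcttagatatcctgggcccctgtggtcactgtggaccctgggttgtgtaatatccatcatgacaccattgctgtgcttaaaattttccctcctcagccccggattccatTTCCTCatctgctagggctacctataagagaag
Ccl12: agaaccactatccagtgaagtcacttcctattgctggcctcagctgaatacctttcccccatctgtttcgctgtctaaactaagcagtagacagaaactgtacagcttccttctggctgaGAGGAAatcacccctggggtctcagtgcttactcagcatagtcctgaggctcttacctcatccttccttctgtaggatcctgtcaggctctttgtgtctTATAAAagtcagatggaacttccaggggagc
Ccl6: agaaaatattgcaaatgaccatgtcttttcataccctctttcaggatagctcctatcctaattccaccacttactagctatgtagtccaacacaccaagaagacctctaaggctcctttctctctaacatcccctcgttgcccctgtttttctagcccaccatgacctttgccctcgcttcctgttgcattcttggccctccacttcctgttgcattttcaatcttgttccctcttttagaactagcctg
Ccl9: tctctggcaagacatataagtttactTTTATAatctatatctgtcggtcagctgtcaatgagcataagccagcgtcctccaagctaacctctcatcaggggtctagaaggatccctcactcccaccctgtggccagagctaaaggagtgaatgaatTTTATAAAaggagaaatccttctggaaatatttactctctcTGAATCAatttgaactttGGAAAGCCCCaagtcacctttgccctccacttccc
Ccl3 held GAGGAA on the opposite strand, 33 to 28 bases before the start, and Ccl12 held it on its own strand, 130 to 125 bases before the start. These 6 letters occurred in 23.3% of 32851 mouse promoters of this length. Ccl12 also held TATAAA, 31 to 26 bases before the start (12.4% of promoters hold it somewhere). Ccl9 was the only 1 of the 4 with the kappaB consensus (7.25% of promoters) and with AP-1, whose letters read alike on both strands (6.75%), and it had 3 matches to TATAAA, 2 of them overlapping. The window of Ccl6 matched none of these motifs, and TTTCNNTTTC (2.98% of promoters) was in none of the 4. A match of letters is not a binding site.

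Against control IgG, 8 of the 9 genes were higher in α-IgLON5 hippocampi and 7 of 9 in α-IgLON5 cortices. A gene was called at an adjusted p under 0.05 (edgeR quasi-likelihood test, Benjamini-Hochberg over all 20271 genes) together with a fold change above 2, which 2.21% of all tested genes met as higher in the hippocampus and 2.14% in the cortex. Against PBS the counts were 8 of 9 in the hippocampus (2.56% of all genes) and 7 of 9 in the cortex (2.24%). The comparisons with control IgG and with PBS share the α-IgLON5 libraries. Without the count filter, 8 of 9 were called in the hippocampus and 7 of 9 in the cortex against control IgG. The same fits called 562 and 516 of 40544 genes, in either direction. Ccr1 was called in none of them, and Ccl6 was called in the hippocampus and not in the cortex. The median log2 fold change of the 9 genes against control IgG was 3.7 in the hippocampus and 5.4 in the cortex, and the median over all genes was 0.0012 and -0.0066. Without the library of mouse 8 the medians of the 9 genes were 2.86 and 4.28.

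**Figure D1:**
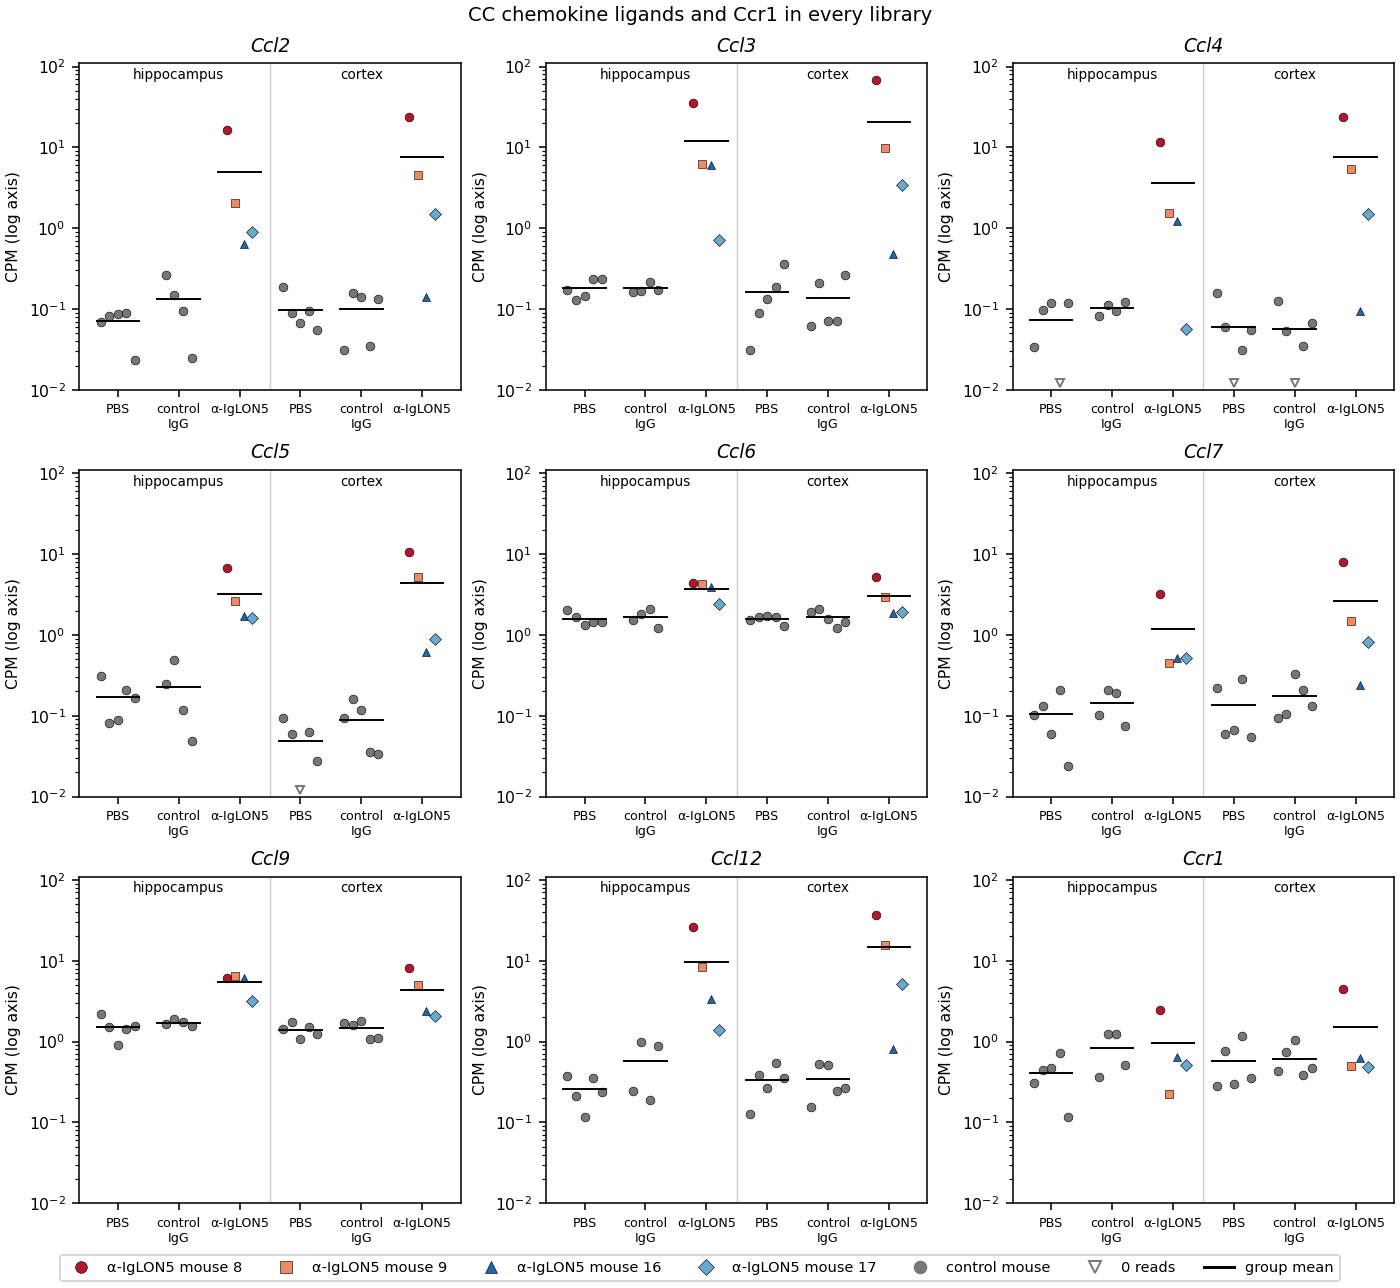
Level of each of the 9 genes in all 27 libraries, in CPM on a log axis, by tissue and treatment. Each point is 1 mouse, horizontal lines are group means, and open triangles are libraries with 0 reads, drawn at the foot of the axis. Mouse 8 is the highest α-IgLON5 library for 8 of 9 genes in the hippocampus and for 9 of 9 in the cortex.

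These counts depended on the libraries in the fit. With only the groups compared in the fit, 4 of 9 genes passed in the hippocampus (Ccl2, Ccl4, Ccl7 and Ccl12 lost) and 5 of 9 in the cortex (Ccl7 and Ccl9 lost) against control IgG, while the number called over all genes, in either direction, was 291 in place of 496 and 259 in place of 438. Against PBS these fits kept 8 of 9 in the hippocampus and 5 of 9 in the cortex (Ccl7 and Ccl9 lost), with 465 in place of 541 and 277 in place of 455 over all genes. With only mice 8 to 17, a run of numbers that holds every α-IgLON5 mouse, 2 control IgG hippocampi and 3 control IgG cortices, 0 of 9 passed in either tissue by edgeR, where 50 and 9 of all genes did, while the 8 ligands were higher by 1.14 to 6.13 on the log2 scale in the hippocampus and by 0.71 to 7.66 in the cortex. Of the PBS mice only mouse 14 falls in this run, and no such fit was made against PBS. There the run of numbers and the treatment can hardly be told apart.

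Among the ligands of Ccr2, Ccl12 reached the highest levels. In the hippocampi of α-IgLON5 mice 8, 9, 16 and 17, Ccl12 stood at 25.9, 8.34, 3.4 and 1.4 CPM. The control IgG hippocampi of mice 10, 15, 37 and 75 held 0.245, 0.978, 0.19 and 0.884 CPM, and PBS hippocampi held 0.117 to 0.375 CPM (median 0.235, n = 5). Every α-IgLON5 hippocampus was above every control, with the smallest gap between α-IgLON5 mouse 17 and control IgG mouse 15. The log2 fold change was 4.05 (SE 0.84, adjusted p = 0.00332, edgeR) against control IgG and 5.23 (SE 0.87, adjusted p = 0.000181) against PBS. Against control IgG it was 2.86 (adjusted p = 0.0398) without the hippocampus of mouse 8, and 4.04 (adjusted p = 0.0558) by edgeR with only the groups compared, where the call was lost.

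Cortical Ccl12 was 36.7, 15.7, 0.81 and 5.2 CPM in mice 8, 9, 16 and 17. Control IgG cortices held 0.156 to 0.532 CPM (median 0.266, n = 5) and PBS cortices 0.125 to 0.536 CPM (median 0.357, n = 5). The groups did not overlap, although mouse 16 was close to the controls. Against control IgG, cortical Ccl12 rose by 5.4 (SE 0.86, adjusted p = 0.000223, edgeR) on the log2 scale, and by 4.37 (adjusted p = 0.00186) without the cortex of mouse 8.

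Ccl2, the best known attractant of monocytes, stood at 16.3, 2.03, 0.644 and 0.888 CPM in the hippocampi of mice 8, 9, 16 and 17. Control IgG hippocampi held 0.266, 0.15, 0.0952 and 0.0246 CPM, which came from 13, 8, 4 and 1 reads, and PBS hippocampi 0.0235 to 0.089 CPM (median 0.082, n = 5). The α-IgLON5 and control hippocampi did not overlap. The difference on the log2 scale was 5.09 (SE 1.13, adjusted p = 0.00596, edgeR) against control IgG. Against PBS it was 6.05 (SE 1.17, adjusted p = 0.00114, edgeR). Without the hippocampus of mouse 8 both calls were lost. The edgeR values were then 2.98 (adjusted p = 0.121) against control IgG and 3.94 (adjusted p = 0.0546) against PBS. With both libraries of mouse 8 left out, Ccl2 was called by edgeR, at 2.99 (adjusted p = 0.0152) against control IgG and 3.95 (adjusted p = 0.00135) against PBS.

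In cortices of the same mice Ccl2 was 23.9, 4.55, 0.143 and 1.49 CPM. Control IgG cortices held 0.0313 to 0.16 CPM (median 0.133, n = 5) and PBS cortices 0.055 to 0.188 CPM (median 0.0887, n = 5). Mouse 16, with 6 reads, lay inside the control range, and the other 3 mice lay above it. The cortical log2 fold change against control IgG was 6.19 (SE 1.14, adjusted p = 0.00112, edgeR), and 4.28 (adjusted p = 0.0239) without the cortex of mouse 8.

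Ccl7, which acts on Ccr1 as well as Ccr2, had lower mean levels in α-IgLON5 brain and smaller fold changes than Ccl2 and Ccl12. Its hippocampal level was 3.2, 0.451, 0.521 and 0.516 CPM in mice 8, 9, 16 and 17, against 0.102, 0.207, 0.19 and 0.0737 CPM in control IgG mice 10, 15, 37 and 75 and 0.0235 to 0.208 CPM (median 0.102, n = 5) in PBS. No control reached an α-IgLON5 library, but mouse 8 was 6.14 times the next mouse. Hippocampal Ccl7 differed by 2.93 (SE 0.86, adjusted p = 0.0383, edgeR) against control IgG, and by 1.76 (adjusted p = 0.306) without the hippocampus of mouse 8. Leaving out the hippocampus of control IgG mouse 10, 37 or 75, or of α-IgLON5 mouse 9, also lost this call.

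In the cortex Ccl7 was 7.99, 1.48, 0.238 and 0.825 CPM, against 0.0939 to 0.33 CPM (median 0.133, n = 5) in control IgG and 0.055 to 0.284 CPM (median 0.0672, n = 5) in PBS, with mouse 16 inside the control range. There the log2 fold change against control IgG was 3.79 (SE 0.77, adjusted p = 0.0033, edgeR), and 2.12 (adjusted p = 0.133) without the cortex of mouse 8. With both libraries of that mouse left out it was called, at 2.12 (adjusted p = 0.0233) by edgeR.

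Ccl3 and Ccl4, neighbours on chromosome 11 and typical products of activated microglia and macrophages, had the largest cortical fold changes of the 9 genes. Hippocampal Ccl3 was 35.6, 6.2, 6.07 and 0.716 CPM in mice 8, 9, 16 and 17. Control IgG hippocampi held 0.163, 0.169, 0.214 and 0.172 CPM, and PBS hippocampi 0.131 to 0.237 CPM (median 0.171, n = 5). All 4 α-IgLON5 hippocampi were above all 9 controls, and mouse 8 was 49.7 times mouse 17. The log2 fold change against control IgG was 6.04 (SE 1.16, adjusted p = 0.0016, edgeR), and 4.54 (adjusted p = 0.0147) without the hippocampus of mouse 8.

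Cortical Ccl3 was 68.1, 9.74, 0.476 and 3.42 CPM, and the value of mouse 8 was the highest of any of the 9 genes in any library. Control IgG cortices held 0.0626 to 0.266 CPM (median 0.0706, n = 5) and PBS cortices 0.0313 to 0.357 CPM (median 0.134, n = 5). These groups did not overlap, and mouse 16 was only just above the highest control. Against control IgG the log2 fold change was 7.29 (SE 1.17, adjusted p = 0.000254, edgeR), and 5.09 (adjusted p = 0.00252) without the cortex of mouse 8.

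Ccl4 stood at 11.8, 1.52, 1.23 and 0.0573 CPM in the hippocampi of mice 8, 9, 16 and 17. Control IgG hippocampi held 0.0817, 0.113, 0.0952 and 0.123 CPM and PBS hippocampi 0 to 0.118 CPM (median 0.0984, n = 5). Mouse 17, with 2 reads, was below every control IgG hippocampus, and the other 3 were above every control. The difference on the log2 scale was 5.06 (SE 1.22, adjusted p = 0.0119, edgeR) against control IgG, and 3.05 (adjusted p = 0.178) without the hippocampus of mouse 8.

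In the cortex Ccl4 was 23.6, 5.41, 0.0952 and 1.51 CPM, against 0 to 0.125 CPM (median 0.0532, n = 5) in control IgG and 0 to 0.157 CPM (median 0.055, n = 5) in PBS. Mouse 16, with 4 reads, lay in the control range. The cortical difference on the log2 scale was 7.07 (SE 1.28, adjusted p = 0.000968, edgeR), and 5.32 (adjusted p = 0.0141) without the cortex of mouse 8. Control values were near the limit of detection, since 3 of 19 control libraries had 0 reads of Ccl4, which allows up to 0.0706 to 0.101 CPM at 3 counts, and a fitted fold change of this size depends on how such low counts are modelled. These limits cover counting error only.

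Ccl5, an attractant of T cells and monocytes that T and NK cells also make, was above every control in each α-IgLON5 library of both tissues. The hippocampal level was 6.74, 2.59, 1.72 and 1.6 CPM in mice 8, 9, 16 and 17, against 0.245, 0.489, 0.119 and 0.0491 CPM in control IgG mice 10, 15, 37 and 75 and 0.082 to 0.307 CPM (median 0.165, n = 5) in PBS. Cortical Ccl5 was 10.7, 5.27, 0.619 and 0.879 CPM, against 0.0333 to 0.16 CPM (median 0.0939, n = 5) in control IgG and 0 to 0.0939 CPM (median 0.0591, n = 5) in PBS. Relative to its highest control, the lowest α-IgLON5 library was further away for Ccl5 than for any other of the 9 genes, in both tissues. Ccl5 rose by 3.7 (SE 0.73, adjusted p = 0.0020, edgeR) on the log2 scale in the hippocampus and by 5.6 (SE 0.81, adjusted p = 8.18e-05) in the cortex, against control IgG. Without the library of mouse 8 these edgeR values were 3.02 (adjusted p = 0.0163) and 4.61 (adjusted p = 0.000634).

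Ccl6 and Ccl9, which myeloid cells make without stimulation, were the ligands with a clear level in control brain, at 0.909 to 2.18 CPM over the 19 control libraries. Ccl9 stood at 6.15, 6.48, 6.07 and 3.18 CPM in the hippocampi of mice 8, 9, 16 and 17, against 1.63, 1.88, 1.74 and 1.57 CPM in control IgG and 0.909 to 2.18 CPM (median 1.49, n = 5) in PBS. Its cortical level was 8.02, 5.05, 2.36 and 2.1 CPM, against 1.09 to 1.79 CPM (median 1.6, n = 5) in control IgG and 1.08 to 1.74 CPM (median 1.41, n = 5) in PBS. Every α-IgLON5 library was above every control of its tissue, and mouse 8 did not stand out in the hippocampus. Ccl9 rose by 1.67 (SE 0.32, adjusted p = 0.00144, edgeR) on the log2 scale in the hippocampus and by 1.57 (SE 0.3, adjusted p = 0.00197) in the cortex. With only the groups compared, the cortical call was lost, at 1.59 (adjusted p = 0.0662) by edgeR against control IgG and 1.66 (adjusted p = 0.0523) against PBS.

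Ccl6 had the smallest fold changes of the ligands. Hippocampal Ccl6 was 4.33, 4.22, 3.92 and 2.41 CPM in mice 8, 9, 16 and 17, against 1.51, 1.82, 2.07 and 1.2 CPM in control IgG and 1.32 to 2.05 CPM (median 1.45, n = 5) in PBS, with no overlap. The rise on the log2 scale was 1.16 (SE 0.26, adjusted p = 0.00638, edgeR) against control IgG. Cortical Ccl6 was 5.24, 2.96, 1.88 and 1.94 CPM against 1.23 to 2.08 CPM (median 1.55, n = 5) in control IgG, and mice 16 and 17 lay in that range, while all 4 were above the 1.29 to 1.71 CPM (median 1.67, n = 5) of PBS cortices. The cortical difference of 0.87 (SE 0.25, adjusted p = 0.0481, edgeR) passed the p threshold but not the fold threshold, and it was 0.45 (adjusted p = 0.417) without the cortex of mouse 8. It was called by edgeR without the cortex of mouse 16, at 1.04 (adjusted p = 0.0112), or that of mouse 17, at 1.04 (adjusted p = 0.015), and likewise against PBS.

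Ccr1, the receptor among the 9 genes, was at 2.46, 0.225, 0.644 and 0.516 CPM in the hippocampi of mice 8, 9, 16 and 17 and at 4.4, 0.505, 0.619 and 0.484 CPM in their cortices. Control IgG hippocampi held 0.368, 1.22, 1.24 and 0.516 CPM and PBS hippocampi 0.118 to 0.712 CPM (median 0.443, n = 5), control IgG cortices 0.386 to 1.04 CPM (median 0.466, n = 5) and PBS cortices 0.282 to 1.17 CPM (median 0.357, n = 5). Both tissues of mouse 8 were above all controls, and the other 3 mice lay in the control range. The log2 fold change against control IgG was 0.16 (SE 0.69, adjusted p = 0.928, edgeR) in the hippocampus and 1.26 (SE 0.65, adjusted p = 0.356) in the cortex. Without the library of mouse 8 these edgeR estimates were -0.78 (adjusted p = 0.639) and -0.21 (adjusted p = 0.937). The hippocampal estimate was also below 0 without control IgG mouse 10 (-0.093) or 75 (-0.0093).

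**Figure D2:**
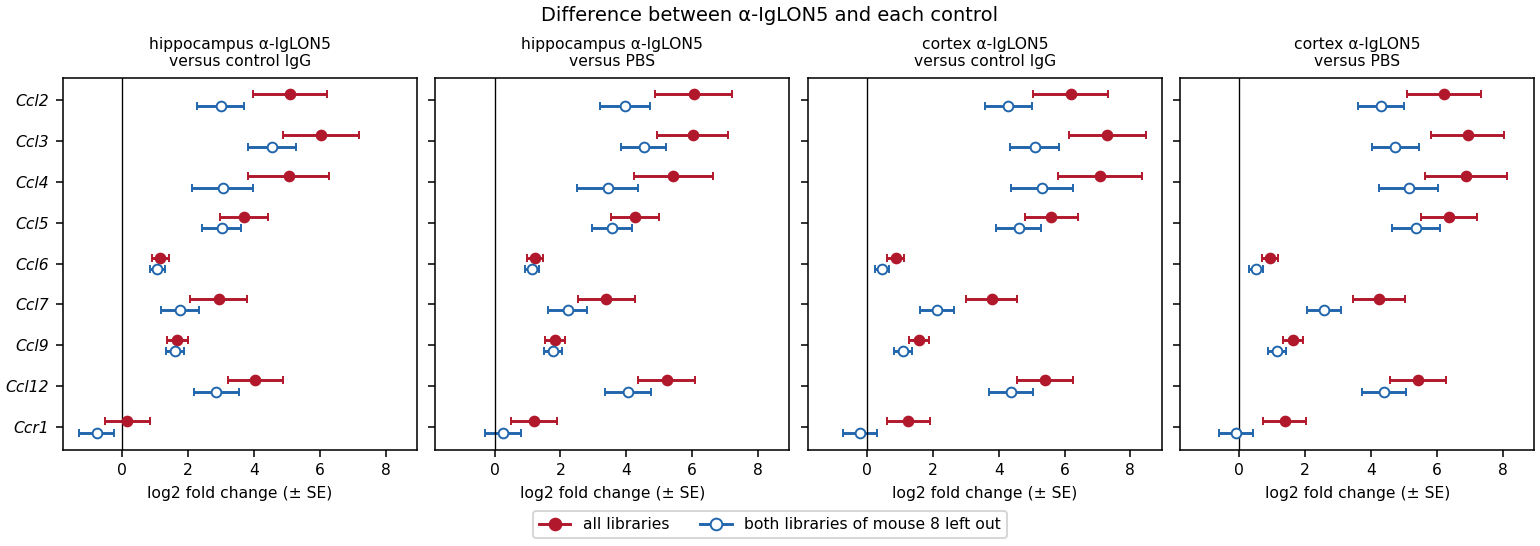
Log2 fold change of each of the 9 genes in the 4 comparisons of α-IgLON5 with a control, from all libraries (filled) and with both libraries of mouse 8 left out (open), with bars of 1 SE. Without mouse 8, Ccl4 and Ccl7 lose their call in the hippocampus against control IgG, the hippocampal estimates of Ccl6 and Ccl9 hardly move, and Ccr1 lies below 0 in 3 of the 4 comparisons.

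All genes but Ccl4 and Ccr1, 7 of 9, had every α-IgLON5 hippocampus above all 9 hippocampal controls of both kinds, which held for 3.22% of all tested genes. Of these, Ccl2, Ccl3, Ccl5 and Ccl7 passed the count filter only through the α-IgLON5 libraries. In the cortex this was so for Ccl3, Ccl5, Ccl9 and Ccl12, 4 of 9 genes, against 2.17% of all genes and over 10 controls. For the other 4 ligands the cortex of mouse 16 lay inside the control range. In bulk tissue, more cells of a type and more RNA per cell cannot be told apart.

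The α-IgLON5 mice differed widely among themselves. Summed over the 8 ligands, their hippocampi held 110, 31.8, 23.6 and 10.8 CPM in mice 8, 9, 16 and 17, and their cortices 184, 50.1, 6.62 and 17.4 CPM. All 8 sums lay above those of the controls, which ran from 2.84 to 5.81 CPM in hippocampi and from 2.95 to 4.9 CPM in cortices. Mouse 8 ranked first for 8 of 9 genes in the hippocampus and for 9 of 9 in the cortex, and mouse 9 ranked second for 6 and 8. Last place fell mostly to mouse 17 in the hippocampus (6 of 9 genes) and to mouse 16 in the cortex (7 of 9).

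Which tissue held more transcript differed from mouse to mouse. All 9 genes were higher in the cortex of mouse 8 (median cortex to hippocampus ratio 1.58), and 7 of 9 in that of mouse 9 (median 2.03), the exceptions being Ccl6 and Ccl9. Mouse 16 had all 9 higher in the hippocampus, with a median ratio of 0.361 and a ratio of 0.0785 for Ccl3. In mouse 17 the cortex was higher for Ccl2, Ccl3, Ccl4, Ccl7 and Ccl12 and the hippocampus for the other 4 genes, and its Ccl4 differed most, at 1.51 against 0.0573 CPM.

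**Figure D3:**
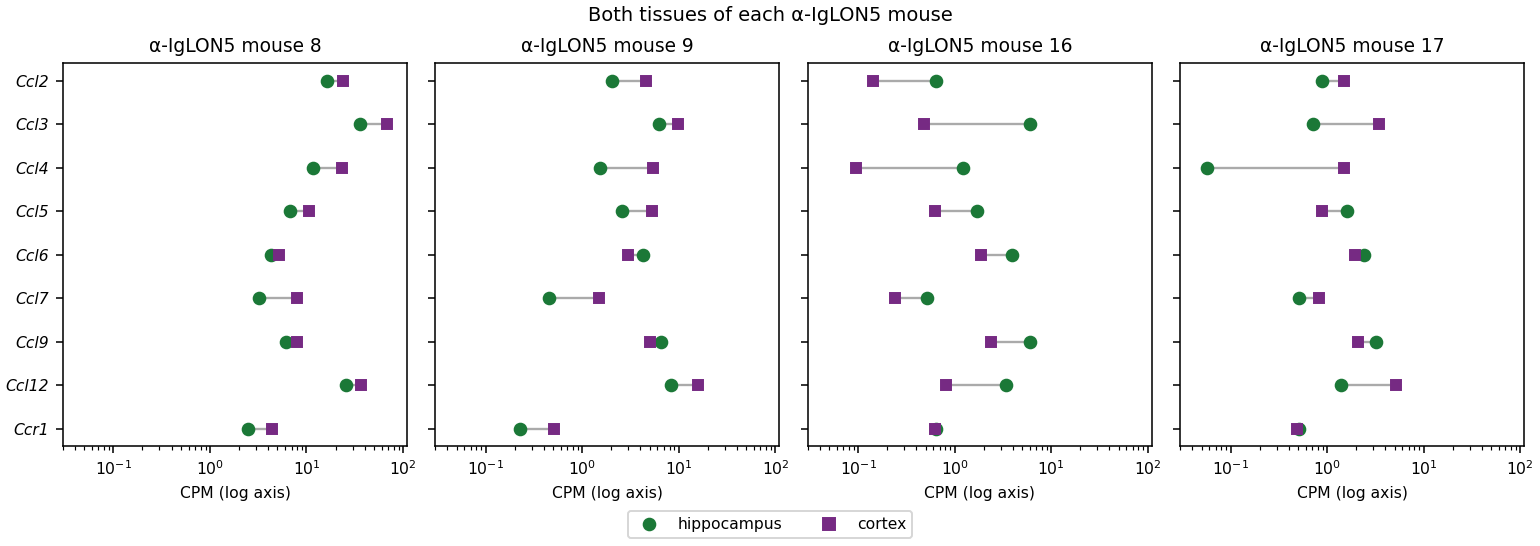
Hippocampus (circles) and cortex (squares) of each α-IgLON5 mouse for the 9 genes, in CPM on a log axis, with a line joining the tissues. The squares lie to the right of the circles for all 9 genes in mouse 8 and to the left for all 9 in mouse 16.

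The effect of α-IgLON5 was not shown to differ between the tissues. Tests of the interaction of tissue and treatment by edgeR called 0 of the 9 genes against control IgG (0% of all genes) and 0 against PBS (0.00493% of all genes), and DESeq2 also called 0 of the 9 in both. At an unadjusted p under 0.05, 0 of the 9 passed in either, where 2158 and 672 of all genes did. Hippocampal minus cortical log2 fold changes against control IgG ran from -2.01 (SE 2.21) for Ccl4 and -1.9 (SE 1.19) for Ccl5 to 0.29 (SE 0.36) for Ccl6, with adjusted p from 0.595 upward (edgeR). These SEs leave room for differences of several-fold in either direction for Ccl2, Ccl3 and Ccl4. The tissue differences also move with mouse 8. Without its hippocampus, hippocampal Ccl4 rose by 3.05 in place of 5.06 against control IgG. Without its cortex, cortical Ccl4 rose by 5.32 in place of 7.07. With the mouse as a replicate block, 0 of 9 passed as well.

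No difference in these genes was detected between control IgG and PBS. Between control IgG and PBS, edgeR and DESeq2 each called 0 of the 9 genes in the hippocampus (0.0641% of all genes by edgeR) and 0 in the cortex (0%), and 0 passed at an unadjusted p under 0.05, where 2828 and 1650 of all genes did. With SEs of 0.24 to 2.26 on the log2 scale over both tissues, differences of several-fold cannot be seen for the ligands with few reads. The largest hippocampal estimates were 1.19 (SE 0.99, adjusted p = 0.639, edgeR) for Ccl12 and 1.04 (SE 0.67, adjusted p = 0.53) for Ccr1. Hippocampal Ccl12 of control IgG mice 15 and 75 was above that of every PBS mouse, while mice 10 and 37 lay in the PBS range. Between cortex and hippocampus of PBS mice 0 of the 9 genes were called (5.57% of all genes), with the largest estimate for Ccl5 at -1.64 (SE 1.19, adjusted p = 0.356, edgeR), cortex minus hippocampus.

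The balance between the ligands differed too, which follows from the unequal fold changes given above. Levels were scaled per kb of exon so that genes can be compared. Ccl6 was the most abundant ligand per kb in 15 of 19 control libraries and Ccl12 in the other 4. Among the 8 α-IgLON5 libraries Ccl12 led in 6 and Ccl3 in 2, the cortex of mouse 8 and the hippocampus of mouse 16. This order rests on the exon lengths. In unscaled group means, Ccl3 was above Ccl12 in α-IgLON5 hippocampi (12.2 and 9.77 CPM) and cortices (20.4 and 14.6 CPM). In control IgG hippocampi the unscaled means of Ccl6 and Ccl9 were close, at 1.65 and 1.71 CPM. Ccl6 and Ccl9 together made up 34.4% to 66.8% of the 8 ligands in control libraries and 2.31% to 35.3% in α-IgLON5 libraries, of which the cortex of mouse 16 alone fell in the control range. The share of Ccl6 was 1.69, 6.64, 9.38 and 14.7% in the hippocampi of mice 8, 9, 16 and 17 and 1.21, 2.55, 20.3 and 5.03% in their cortices. In α-IgLON5 cortices the mean levels were 27.2 CPM per kb for Ccl12, 26.7 for Ccl3 and 11.6 for Ccl4, means in which mouse 8 weighs most, and 1.67 for Ccl6 and 1.44 for Ccl9. Control IgG cortices held 0.917 CPM per kb of Ccl6 and 0.477 of Ccl9, so both had lower shares in α-IgLON5 cortices at higher mean levels.

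**Figure D4:**
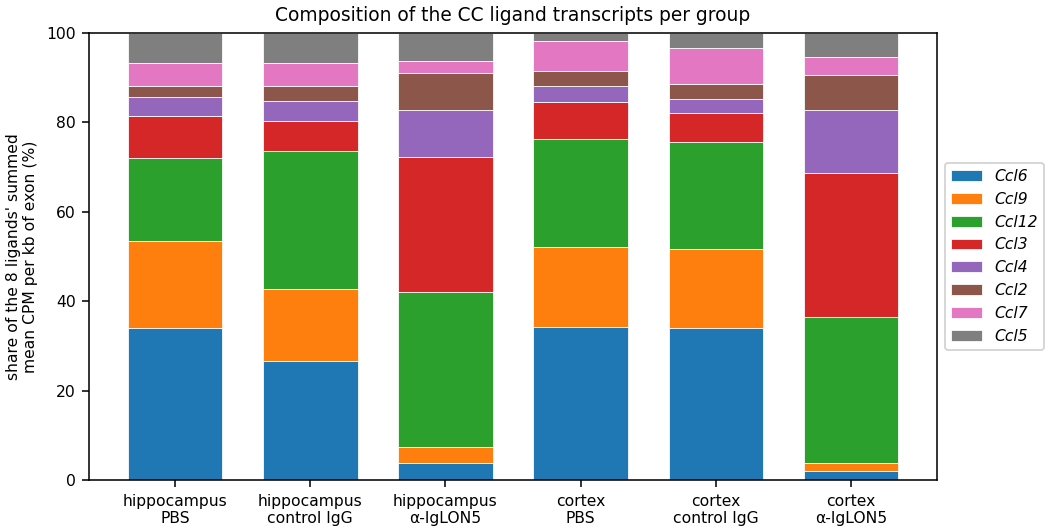
Share of each ligand in the summed group means of the 8 ligands per kb of exon, in percent, for the 6 groups. Ccl6 takes 26.5% to 34.2% of the 4 control bars and 2.02% to 3.94% of the α-IgLON5 bars, where Ccl12 and Ccl3 take the largest shares. The mean level of Ccl6 per kb was nonetheless higher in both α-IgLON5 groups than in their controls. Mouse 8 weighs most in the α-IgLON5 means, and without it Ccl6 takes 8.67% in the hippocampus and 4.13% in the cortex.

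Of 13 other CC ligands 6 passed the count filter, and 2 of these, Ccl8 and Ccl22, were called higher in both tissues against both controls, with 0 lower. Ccl8, a monocyte attractant encoded next to Ccl12, was at 2.95, 0.394, 0.827 and 2.29 CPM in the hippocampi of mice 8, 9, 16 and 17, at 0.102, 0.207, 0.0952 and 0.0246 CPM in control IgG and at 0 to 0.89 CPM (median 0.0656, n = 5) in PBS. PBS mouse 38 was thus above α-IgLON5 mice 9 and 16, and mouse 17, last for most of the 9 genes, was second. Ccl8 rose by 3.82 (SE 0.83, adjusted p = 0.00474, edgeR) on the log2 scale in the hippocampus and by 3.6 (SE 0.85, adjusted p = 0.0123) in the cortex against control IgG. Ccl22, a ligand of Ccr4 made by dendritic cells and macrophages, rose by 2.1 (SE 0.63, adjusted p = 0.0418, edgeR) and 3.42 (SE 0.66, adjusted p = 0.00197). It stood at 2.71, 0.282, 0.736 and 1.09 CPM in the hippocampi of mice 8, 9, 16 and 17, against 0.245, 0.451, 0.333 and 0.0491 CPM in control IgG mice 10, 15, 37 and 75. Mouse 8 was highest, and mouse 9 lay below control IgG mice 15 and 37. In the cortices it was 3.94, 1.23, 0.571 and 0.466 CPM, against 0.0351 to 0.266 CPM (median 0.141, n = 5) in control IgG, with no overlap. Without the library of mouse 8, Ccl22 was 1.41 (adjusted p = 0.244) in the hippocampus, where the call was lost, and 2.35 (adjusted p = 0.0441) in the cortex. Leaving out the hippocampus of control IgG mouse 10, 37 or 75 or of α-IgLON5 mouse 17 also lost the hippocampal call. Cortical Ccl8 was no longer called without the cortex of mouse 8, at 3.2 (adjusted p = 0.0745). The median log2 fold change of the 6 tested ligands was -0.053 in the hippocampus and 0.3 in the cortex.

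Of 13 other CC receptors 8 were tested, and against control IgG 0 were called in the hippocampus and 1, Ccr2, in the cortex (medians 0.46 and 0.098 on the log2 scale). Ccr2, the receptor of Ccl2, Ccl7 and Ccl12, stood at 14.1, 3.36, 1.93 and 3.07 CPM in the cortices of mice 8, 9, 16 and 17, against 0.407 to 1.74 CPM (median 0.772, n = 5) in control IgG, with no overlap. In hippocampi it was 8.71, 1.63, 2.36 and 5.16 CPM against 0.981, 2.56, 1.12 and 0.467 CPM, and mice 9 and 16 were below control IgG mouse 15. The log2 fold change of Ccr2 was 2.56 (SE 0.58, adjusted p = 0.00872, edgeR) in the cortex and 1.78 (SE 0.6, adjusted p = 0.0693) in the hippocampus, and hippocampal Ccr2 was called against PBS at 2.6 (SE 0.59, adjusted p = 0.00651). The values against control IgG without the library of mouse 8 were 1.55 (adjusted p = 0.189) in the cortex, where the call was lost, and 1.26 (adjusted p = 0.284) in the hippocampus. Without the hippocampus of control IgG mouse 15 or of α-IgLON5 mouse 16, hippocampal Ccr2 was called, at 2.37 (adjusted p = 0.025) and 2.0 (adjusted p = 0.041). Against PBS, 2 of the 8 receptors were called in the hippocampus, Ccr2 and Ccr7, and 3 in the cortex, Ccr2, Ccr7 and Ccrl2.

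All 12 partners of CC receptor signalling were tested, and 5 were called higher in the hippocampus and 4 in the cortex against control IgG, with 0 lower (medians 0.51 and 0.17 on the log2 scale). Dock2, which activates Rac in migrating leukocytes, rose by 1.61 (SE 0.2, adjusted p = 5.42e-06, edgeR) and 1.3 (SE 0.19, adjusted p = 6.48e-05). Rac2, the haematopoietic Rac, rose by 2.65 (SE 0.37, adjusted p = 3.26e-05, edgeR) and 2.35 (SE 0.35, adjusted p = 9.48e-05). Pik3cg and Pik3r5, catalytic and regulatory subunits of a kinase that G proteins activate, rose by 1.45 (SE 0.21) and 2.08 (SE 0.31) in the hippocampus and by 1.26 (SE 0.2) and 1.45 (SE 0.29) in the cortex. These 4 genes were above every control in each α-IgLON5 library of both tissues. Rgs1, a brake on receptor signalling, rose in the hippocampus by 1.27 (SE 0.39, adjusted p = 0.0445, edgeR), and its cortical value was 1.26 (SE 0.36, adjusted p = 0.053). Rgs1 was, without the library of mouse 8, 1.04 (adjusted p = 0.172) in the hippocampus, where the call was lost, and 0.85 (adjusted p = 0.343) in the cortex. The hippocampal call was also lost without control IgG mouse 10, 37 or 75 or α-IgLON5 mouse 17, and the cortical value was called without the cortex of α-IgLON5 mouse 16, at 1.42 (adjusted p = 0.0246). The other 7 were called in neither tissue.

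**Figure D5:**
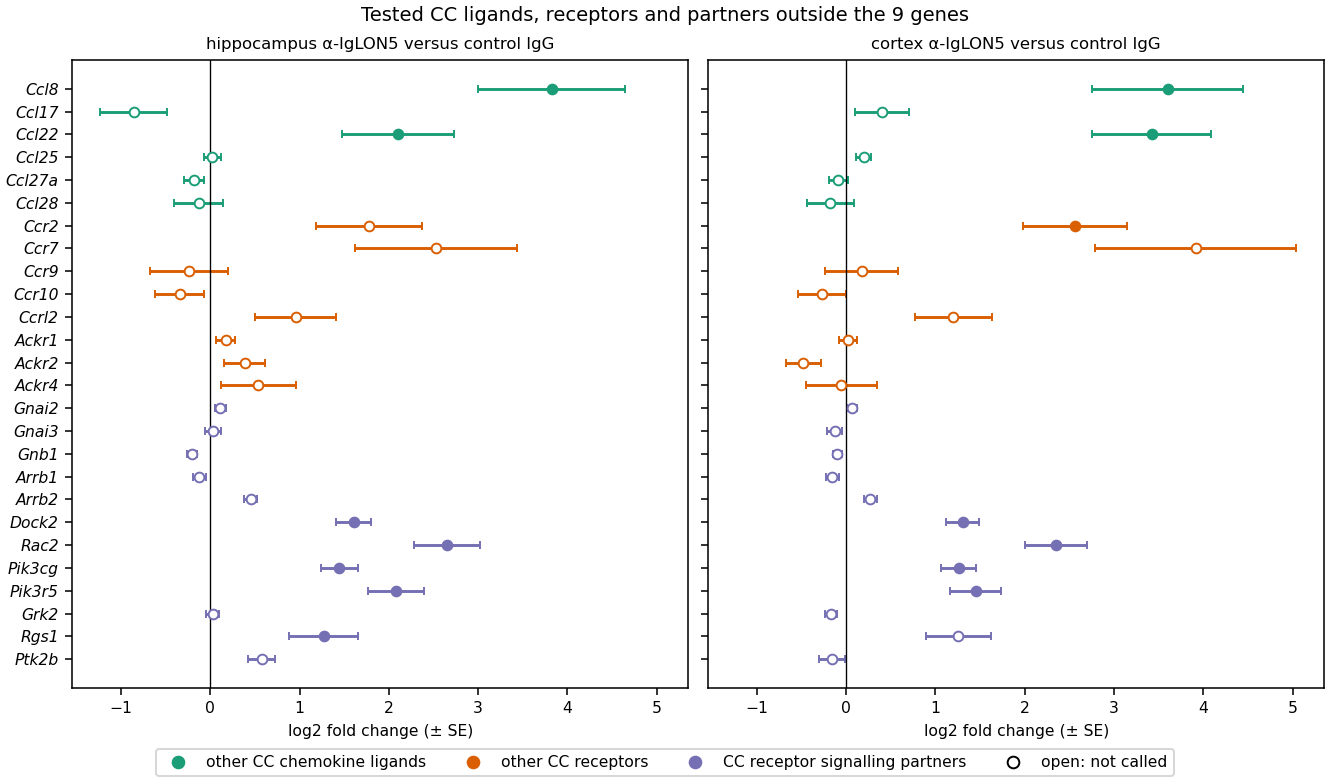
Log2 fold change against control IgG, with bars of 1 SE, of the tested CC ligands, CC receptors and signalling partners outside the 9 genes, in hippocampus and cortex. Filled points were called: Ccl8, Ccl22, Dock2, Rac2, Pik3cg and Pik3r5 in both tissues, Rgs1 in the hippocampus and Ccr2 in the cortex.

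Genes with the most similar pattern were ranked by Spearman's rho over the 27 libraries with the mean z score of the 9 genes. The 10 nearest were H2-DMb1 (rho 0.94), Clic1, Lcp1, Ctsh, Rac2, Cd14, Apobec1, Myo1g, Msn and Tmem173 (rho 0.91). The libraries share group, mouse and tissue, so these values only describe the ranking. Among the 9 genes themselves, Ccl9 followed the mean most closely (rho 0.9) and Ccl4 least (rho 0.46). Since the 10 were ranked by this pattern, their differences are a description. Against control IgG, 5 of the 10 were called in both tissues (Lcp1, Rac2, Cd14, Apobec1 and Myo1g), Tmem173 in the hippocampus, and H2-DMb1, Clic1, Ctsh and Msn in neither, with folds of 1.5 to 1.94. H2-DMb1, which takes part in peptide loading of class II molecules, differed by 0.92 (SE 0.23) on the log2 scale in the hippocampus and 0.95 (SE 0.22) in the cortex. Lcp1, a leukocyte actin-bundling protein, differed by 1.71 (SE 0.26) and 1.83 (SE 0.24), and Cd14, a coreceptor for bacterial lipopolysaccharide on myeloid cells, by 2.67 (SE 0.44) and 2.88 (SE 0.42).

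For single genes the nearest 2 were Treml2 and Siglece for Ccl2, Hlx and Dna2 for Ccl3, Gm12250 and Cd3g for Ccl4, Tmem176b and Aldh1l2 for Ccl5, Tmem173 and Mpeg1 for Ccl6, C5ar1 and B2m for Ccl7, Gpr35 and Ly86 for Ccl9, Icam1 and Pilra for Ccl12, and Arhgap18 and Mgl2 for Ccr1. Their rho ran from 0.72 for Cd3g with Ccl4 to 0.93 for C5ar1 with Ccl7. Ccl4 and Ccr1 had no neighbour above 0.75.

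Along chromosome 11 from Ccl2 to Ccl4, 30 other genes were tested, and 5 were called higher in the hippocampus and 7 in the cortex against control IgG. Ccl8 and AI662270 were called in both tissues, and the rest were Slfn genes, an interferon-inducible family that lies between the chemokine blocks. Slfn4, expressed in myeloid cells, had the largest difference of these, at 4.35 (adjusted p = 0.0319, edgeR) in the hippocampus and 5.31 (adjusted p = 0.0131, edgeR) in the cortex. Slfn2 and Slfn9 were called in both tissues and Slfn1 and Slfn8 in the cortex. These neighbours were chosen after their values were seen.

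Lists of immune cell markers were measured beside the ligands, and their medians are log2 differences from control IgG in hippocampus and cortex. Of 10 microglial genes 0 were called against control IgG in either tissue (medians 0.67 and 0.19), and their sum was 455 to 783 CPM in α-IgLON5 hippocampi against 331 to 417 CPM in controls, and 436 to 481 CPM in cortices against 367 to 455 CPM. Mouse 8, first for the ligands, had the lowest microglial sum of the 4 mice, at 455 and 436 CPM, and the hippocampus of mouse 9 had the highest. Of 8 tested monocyte genes 2 were called higher in the hippocampus (Ly6c2 and Itgal) and 4 in the cortex (Ly6c2, Plac8, Chil3 and Itgal). The medians were 0.95 and 1.05, and 4 of 8 genes had a positive difference in the hippocampus and 6 of 8 in the cortex. The sums of 197 to 338 and 348 to 538 CPM lay inside the control ranges of 158 to 364 and 253 to 699 CPM. Such a sum is weighted toward genes with many reads, so it does not show whether genes with few reads rose.

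Lymphocyte genes were low, and their sums were above those of all controls. B cell genes were called higher for 5 and 3 of 8 tested (medians 2.4 and 2.03), with sums of 4.67 to 12.6 CPM in hippocampi and 4.52 to 11.4 CPM in cortices against 2.92 to 4.31 and 2.54 to 3.94 CPM in controls. Of 3 tested T and NK cell genes 1 was called in each tissue, Cd4 and Cd3g (medians 1.36 and 1.07), with sums of 2.57 to 5.76 and 2.79 to 6.06 CPM against 0.853 to 2.14 and 0.84 to 1.7 CPM. Mouse 8 had the highest B cell and T and NK cell sums of the 4 mice in both tissues.

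Neutrophil genes were called for 0 of 6 in both tissues (medians -0.45 and 0.13), but mouse 8 was high, at 10.4 and 17.7 CPM against 2.08 to 4.76 and 1.98 to 3.91 CPM in the other α-IgLON5 mice, with Ly6g at 0 in all α-IgLON5 cortices. Border macrophage genes were called higher for 1 of 9 (Ms4a7) and lower for 1 of 9 (Lyve1) in each tissue (medians -0.63 and -0.24), with sums of 39.3 to 76.4 and 28.3 to 85.1 CPM against 30.8 to 62 and 38 to 75.3 CPM. Dendritic cell genes were called higher for 1 of 9 (Itgax) in the hippocampus and 2 of 9 (Itgax and Klrd1) in the cortex (medians 0.39 and 0.06), with sums of 42.3 to 49.8 and 39.9 to 45.4 CPM against 33.2 to 40.9 and 37.9 to 50.8 CPM. Siglech is in both this list and the microglial list, so these sums are not specific to dendritic cells. Of the astrocyte genes 1 of 8, Gfap, was called higher in each tissue (medians -0.01 and -0.07). The part of these cells in the chemokine levels was not tested.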

How the data were processed

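RNA-seq read counts per gene, as deposited by the authors, were used for 27 libraries (total counts 19385642 to 58550621 per library). The authors aligned TruSeq stranded mRNA reads to GRCm38 with STAR (version 1.4.0 in the submitters' processing notes), and the counting program is not given in the sources used here. Of 55487 identifiers, 55227 matched GENCODE M21 (54435 with the same version). The 20271 genes that reached 10 counts in 4 or more libraries were fitted with edgeR 4.0.16 in R 4.3.3 (TMM factors, quasi-likelihood test, 6 groups of tissue and treatment, no covariate). Each gene's spread was estimated over all 27 libraries together, with both tissues of a mouse treated as independent. The SEs and p-values rest on that pooled spread. Adjusted p-values are Benjamini-Hochberg values over all tested genes. Calls needed an adjusted p below 0.05 plus a more than 2-fold difference, and for the interaction the p criterion only. The fit was also run on counts simulated with the spread of PBS and control IgG hippocampi. That simulation lacked the wider spread among α-IgLON5 mice, so it cannot show how the calls behave there.

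The 9 genes, the gene lists and the rule for named genes were chosen with earlier results of these data known. Some genes of these lists are not reported here, and list counts and sums are without them. Named beside the 9 genes were the members of the related CC lists called against control IgG in either tissue, Ccr2, the 10 genes with the highest Spearman rho (log2 CPM, prior count 1) with the mean z score of the 9 genes, and the nearest 2 of each gene. Ccr7 and Ccrl2, called against PBS alone, fall outside this rule and were named after their values were seen. Mice are separate animals, and no library pair of a group matched another within sampling noise (chi-square per degree of freedom 4.42 to 247 over 48 pairs). Same-numbered libraries were taken as tissues of 1 mouse, for which deviations from the group means correlated at -0.05 to 0.44 (median 0.19, 13 mice). Alternatives were DESeq2 1.42.0, DESeq2-type size factors, other count filters, no fold threshold, only the groups compared, only mice 8 to 17, a replicate block, each library left out and, chosen after seeing the data, both libraries of mouse 8 left out, these fits for the related CC genes, and group mean shares without mouse 8.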

Additional observations from a re-analysis of the deposited data

Results flagged for a closer look

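The highest and lowest library of each group of 4 or 5 were compared with their neighbour by Dixon's criterion for the 9 genes and the ligand sum (60 groups, 9 beyond the critical value, which chance gives in about 1 in 20 groups). In 7 of the 9 the library was from α-IgLON5 mouse 8, the highest of its group. In the hippocampus these were Ccl2 at 16.3 CPM, Ccl3 at 35.6 CPM, Ccl4 at 11.8 CPM and Ccl7 at 3.2 CPM. In the cortex they were Ccl3 at 68.1 CPM, Ccl7 at 7.99 CPM and Ccr1 at 4.4 CPM. The hippocampus of α-IgLON5 mouse 17 was far below the other 3 for Ccl9, at 3.18 CPM. Among controls, hippocampal Ccl3 of control IgG mouse 37 was high at 0.214 CPM, which rests on 9 reads.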

How the results depend on the processing

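DESeq2, DESeq2-type size factors and no count filter left the number of called genes among the 9 at its value in each of the 9 comparisons, and dropping the fold threshold added only Ccl6 in the cortex. Requiring 10 counts in every library left Ccl6 and Ccl9 as the only genes of the 9 to be tested, with 2 called in the hippocampus and 1 in the cortex against either control, since every other gene of the 9 has under 10 reads in at least 1 library. With only the groups compared, 4 were called in the hippocampus against control IgG (Ccl2, Ccl4, Ccl7 and Ccl12 lost) and 5 in the cortex against either control (Ccl7 and Ccl9 lost), and the cause was not tested. With only mice 8 to 17, which leaves fewer controls, 0 were called in the hippocampus and 0 in the cortex.

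Leaving out each library in turn gave 5 to 8 called genes in the hippocampus against either control, 6 to 8 in the cortex against control IgG and 7 to 8 against PBS. The value of 5 came without the hippocampus of mouse 8 (Ccl2, Ccl4 and Ccl7 lost) and that of 6 without its cortex (Ccl7 lost). The same fits called 341 to 620 of all genes in the hippocampus against control IgG and 387 to 570 against PBS, and 221 to 559 in the cortex against control IgG and 262 to 527 against PBS. Without the library of mouse 8, 348 of all genes were called in the hippocampus in place of 496 and 221 in the cortex in place of 438, against control IgG. In these comparisons the sign of Ccr1 alone reversed: its log2 fold change ran over these fits from -0.78 to 0.43 in the hippocampus against control IgG (also below 0, at -0.093 and -0.0093, without control IgG mouse 10 or 75), from -0.21 to 1.59 in the cortex against control IgG and from -0.101 to 1.79 in the cortex against PBS. Without both libraries of mouse 8 these were -0.78, -0.21 and -0.101. Of the log2 fold changes recomputed for the 9 genes in the 4 comparisons of α-IgLON5 with a control, 505 kept direction and side of the threshold, 38 lost the call, 6 gained it and 8 reversed. For the 8 related CC genes called against control IgG, 221 kept both, 34 lost the call, 3 gained it and 0 reversed. Scaled to the library total in place of the normalized size, the ligand sums of the 27 libraries were 0.884 to 1.06 times their value, in each case a shift of under 1 SD of their group. In the other 5 comparisons 0 of 847 recomputed differences were called, and 68 changed sign, none of them among the 6 differences that the text gives for those comparisons.

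With the mouse as a replicate block, 0 of the 9 genes were called in the interaction against control IgG, in that against PBS and between the tissues of PBS mice, as without it. Comparisons within a tissue hold 1 library per mouse and were fitted without a block. Their spread was still estimated from the libraries of both tissues, and same-numbered libraries entered that estimate as independent. Control levels of 6 ligands rest on 0 to 52 reads per library (median 4), which limits the precision of their fold changes.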
